A study of Rattus norvegicus with 8 samples.

Results

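The cytochrome P450 genes, a superfamily of haem enzymes, were examined in the kidneys of rats given colistin and of rats given saline. Members were the rat gene symbols made of Cyp, a family number, a subfamily letter and a gene number that were reached from the RefSeq accessions of the array's non-control probes. The vitamin D enzymes Cyp27b1 and Cyp24a1 and the sterol enzyme Cyp51 were left out by the rule. It gave 66 genes, read by 78 probes, of 15637 named genes on the array. Of the 66 genes, 44 had a probe bright enough to be tested and 22 did not.

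Total RNA came from the kidneys of male rats, 10 weeks old per the labels, at day 28. The control group received saline (n = 4) and the other group received colistin at 30 mg/kg (n = 4). Colistin is a polymyxin antibiotic that injures the renal tubule, and no label names a strain, a route or a schedule of doses. Each sample was amplified, labelled with a single dye and hybridised to its own array. The labels call the tissue kidney and the title of the series speaks of injured tubules, but no label says whether tubules were isolated. Nothing in the labels states that the samples are separate animals, so a p-value here measures the spread between these samples, which may be technical.

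P450 enzymes insert an atom of oxygen into their substrates with electrons passed on by a reductase. Families 1 to 3 mostly oxidise drugs and foreign compounds, family 4 hydroxylates fatty acids and eicosanoids, and smaller families make or break down steroid hormones, bile acids, oxysterols and retinoic acid. In the rat kidney, the proximal tubule is the main site of many of them, and the renal enzymes are best known for turning arachidonic acid into epoxides, by Cyp2c23 and Cyp2j enzymes, and into hydroxylated fatty acids, by Cyp4a enzymes, which act on vessel tone and sodium transport.

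All values below are log2 of a probe's processed signal minus the 75th percentile of its array, so 0 is the 75th percentile of all non-control probes, and differences are colistin minus saline. Saline arrays were dimmer than colistin arrays, with a 75th percentile of 156 to 197 units of intensity against 271 to 317. The scanner's flag for a probe well above background was set for 35 to 41 of the 66 genes on saline arrays and for 44 to 51 on colistin arrays. The lowest value that could carry the flag lay between -5.28 and -4.89 on saline arrays and between -6.42 and -5.95 on colistin arrays, so on this scale a probe at background sits lower on colistin arrays. The arrays were scanned on 3 slides, each with both groups. Marker lists of the tubule were read beside the P450 genes. At an adjusted p under 0.05 (limma with Benjamini-Hochberg), 2 of 10 tubular injury genes tested were higher (Havcr1, by 4.48, and Spp1, by 5.70) and 0 were lower. Of 20 proximal tubule genes tested, 3 were lower and 0 higher, and of 8 distal nephron genes, all with differences below 0 and a median of -3.14, 2 were lower (Slc26a4 and Egf) and 0 higher.

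Between colistin and saline kidneys 1 P450 gene passed the test, Cyp3a9, which was higher. That is 1 of 44 genes tested (2.27%), against 2.02% of all 12378 genes tested (1.47% higher and 0.549% lower) at an adjusted p under 0.05 in limma with Benjamini-Hochberg adjustment over all genes. No P450 gene was called lower at that threshold. At an unadjusted p under 0.05 the count was 11 of 44 (25%), 4 higher and 7 lower, against 22.7% of all genes (10.5% higher and 12.2% lower). The 2 groups did not overlap in 7 P450 genes (15.9%), 2 higher and 5 lower, against 18.6% of all genes (6.91% higher and 11.7% lower). The log2 difference was below 0 in 28 of 44 (63.6%), against 54.8%. The median difference of the 44 genes was -0.36, and that of all genes tested was -0.14. On each of these counts the P450 genes were near the background of the array.

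These shares moved with the way background was handled. With normexp background correction in place of the scanner's processed signal, 12 P450 genes were lower (27.3%, against 21.4% of all genes) and 0 were higher. That correction called 3339 genes in all, of which 20.5% were higher, where the processed signal called 250, of which 72.8% were higher. The median of the P450 genes was then -0.43 and that of all genes -0.33.

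**Figure D1:**
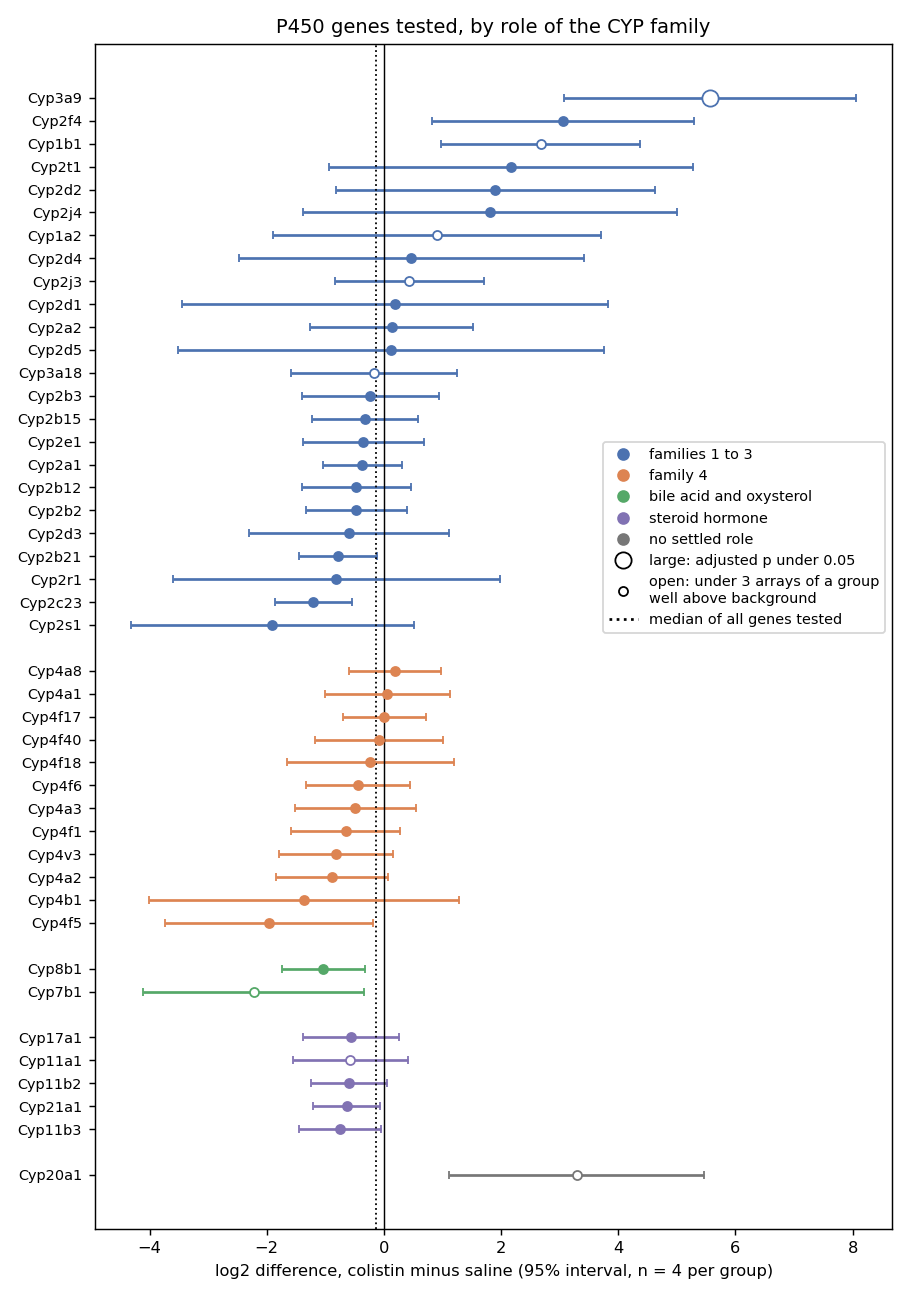
Log2 difference (colistin minus saline) of the 44 P450 genes tested, with 95% intervals and n = 4 per group, grouped by role and ordered by size within each role. The interval of the called gene, Cyp3a9, runs from 3.07 to 8.06, and the dotted line marks the median of all genes tested at -0.14.

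Among the drug-oxidising families 1 to 3, 24 of 38 genes were tested, 1 was higher, 0 were lower, and 12 lay on each side of 0. Cyp3a9 belongs to the subfamily that oxidises steroids and a wide range of drugs. Its values were -6.92, -7.27, -3.70 and -6.87 in saline samples 1 to 4 and -1.62, -1.89, -1.03 and 2.04 in colistin samples 1 to 4. All 4 colistin samples lay above all 4 saline samples, and saline 3 stood closest to them. The difference was 5.57 ± 1.08 (SE, adjusted p = 0.0455 by limma with Benjamini-Hochberg). The probe was well above background in 1 of 4 saline samples and in 4 of 4 colistin samples, so the size of the difference rests on saline values near the background. Within slides 1, 2 and 3 the difference was 5.01, 6.24 and 3.91.

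The call for Cyp3a9 did not hold under most other settings, although the difference stayed above 0 in all 19 of them. It passed in 5 and missed the threshold in 14, with adjusted p between 0.0301 and 0.189. With the slide as a block the difference was 4.95 (adjusted p = 0.0987), and with normexp correction it was 1.66 (adjusted p = 0.113). Leaving out saline 3 kept the call (adjusted p = 0.0301), and leaving out any other sample lost it, with adjusted p from 0.079 to 0.104.

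The other Cyp3a genes gave no call. Cyp3a18 read -4.97, -5.46, -5.36 and -5.42 in the saline samples and -6.01, -5.95, -3.54 and -6.37 in the colistin samples. Colistin 3 was the highest of the 8 and the other 3 colistin samples were the lowest, and the probe was not well above background in any saline sample. The interval of its difference ran from -1.58 to 1.25. Cyp3a62 was well above background in colistin 2 and 3 alone, and Cyp3a2 and Cyp3a23-3a1 in no sample.

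Because Cyp3a9 alone passed, and because Cyp2c23 is the main renal member of its subfamily, the 150 bases before the start of each gene are shown, read from RefSeq for the assembly GRCr8 on the gene's own strand. Cyp3a9 lies on the minus strand at chr12:21960161-21960310 and Cyp2c23 on the minus strand at chr1:252863068-252863217. Of the 66 members, 53 matched an entry of the promoter table. None of the motifs searched (TATAAA on the gene's strand and, on both strands, TTGCNNAA, GCGTG, a direct repeat of AGGNCA with any 1 base between, and GTTAAT followed by any 1 base and ATTNAC) was found in the 250 bases searched before these starts, so no letter is in capitals.
Cyp3a9: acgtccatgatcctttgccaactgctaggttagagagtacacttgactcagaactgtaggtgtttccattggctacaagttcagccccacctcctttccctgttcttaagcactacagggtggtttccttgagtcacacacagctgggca
Cyp2c23: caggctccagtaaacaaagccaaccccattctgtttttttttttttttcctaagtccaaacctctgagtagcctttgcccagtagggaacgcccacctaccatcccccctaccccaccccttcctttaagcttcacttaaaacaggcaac

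Cyp2c23 makes epoxides of arachidonic acid in the rat kidney. Its probe read 6.37, 6.50, 6.59 and 7.03 in the saline samples and 5.27, 5.72, 5.32 and 5.37 in the colistin samples. Every colistin sample lay below every saline sample, and the spread within each group was small. The difference was -1.20 ± 0.29 (SE), which missed the threshold (adjusted p = 0.082, limma with Benjamini-Hochberg). Over 20 other settings the difference ran from -1.30 to -1.05, and the adjusted p was under 0.05 in 1 of them, normexp correction (0.0286), and reached 0.291. Within slides 1, 2 and 3 it was -0.98, -1.18 and -1.27. Of the 20 proximal tubule markers, 3 were lower (Aqp1, Slc22a6 and Pck1) and 0 higher, 14 differences lay below 0 and 6 above it, and the median was -0.85. Their signal, relative to the 75th percentile and summed, a sum that the brightest probes set, was 1156 to 1864 in saline samples and 513.7 to 838.2 in colistin samples. Their part in the Cyp2c23 value was not tested. In RNA pooled from many cells, fewer cells of a type and less RNA per cell cannot be told apart.

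**Figure D2:**
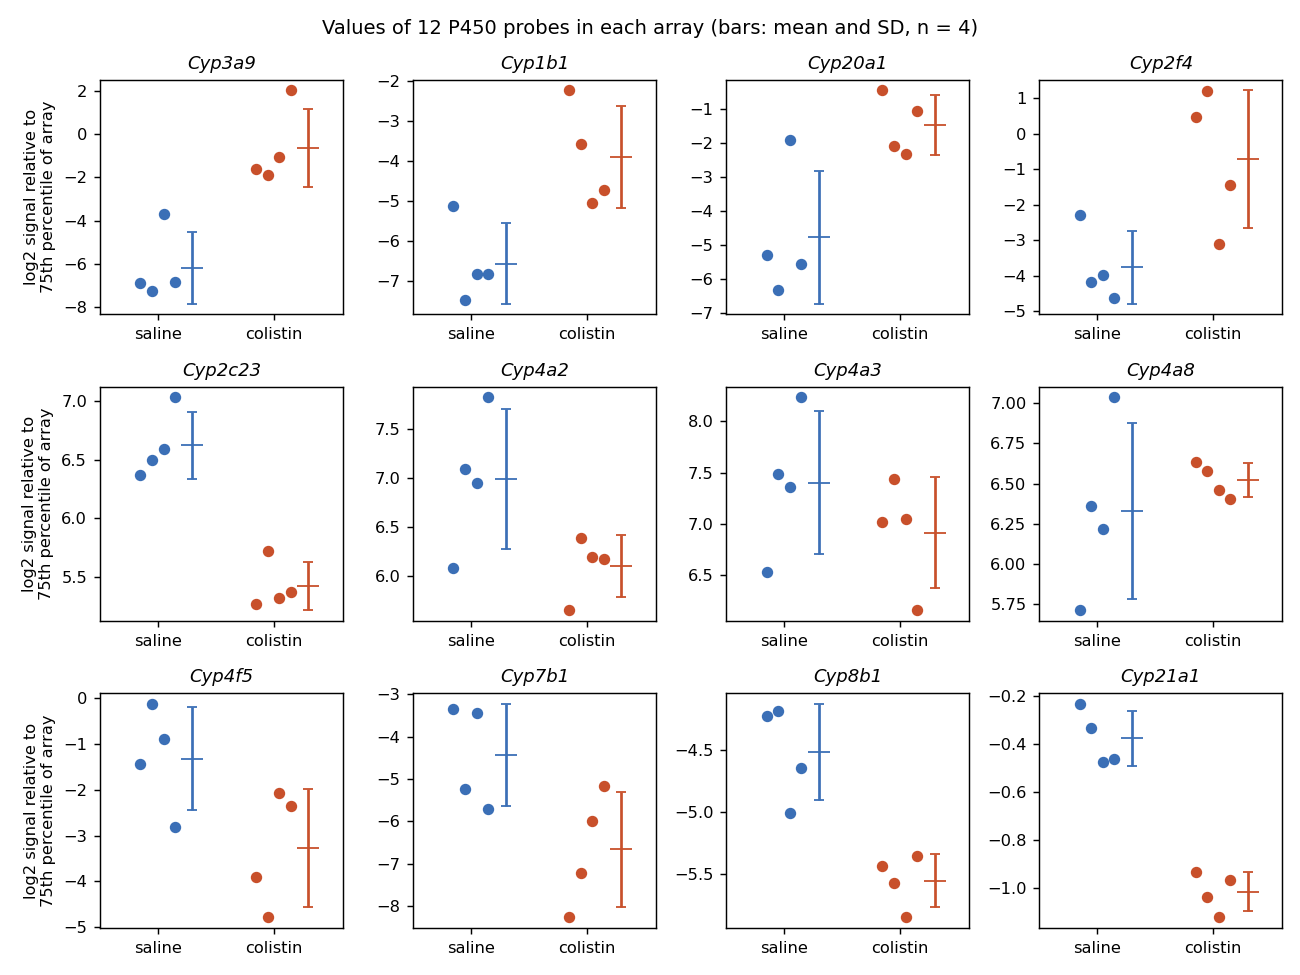
Log2 signal relative to the 75th percentile of the array for 12 P450 probes, 1 point per sample, with the mean and SD of each group (n = 4) at its right. Panels have separate axes. Cyp3a9 and Cyp1b1 are higher and Cyp2c23, Cyp8b1 and Cyp21a1 are lower in colistin samples without overlap, and of these only Cyp3a9 passed the test.

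The other 7 Cyp2c genes were not tested, because none of their probes was well above background in at least 3 samples of either group. In the rat, Cyp2c11 and Cyp2c13 are male-specific liver enzymes and Cyp2c7 is a liver enzyme as well. Cyp2c7 read between -7.26 and -6.65 in the saline samples and -7.99, 2.71, -0.36 and -8.19 in colistin samples 1 to 4. Colistin 2 and 3 were thus far above the other 6 samples, whose probes were not well above background. All 3 Cyp2c7 probes had this shape. Cyp2c11 read -1.89 in colistin 2 and -3.80 in colistin 3, against -7.30 to -5.51 in the other 6. Cyp2c6v1 read -0.37 and -3.76 there, against -8.13 to -6.09. Cyp2c24 read -0.39 and -0.61, against -8.04 to -3.90, and was also well above background in 2 saline samples. Cyp2c13 read 0.25 in colistin 2 and -3.17 in colistin 3, but also -0.51 in saline 2.

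In all, 7 of the 66 P450 genes were higher by over 1 in both colistin 2 and colistin 3 than in the other 2 colistin samples. Beside the Cyp2c genes above, these were Cyp27a1, the mitochondrial sterol hydroxylase, and Cyp3a62. The share of all genes of the array with this order was not counted, so whether 7 of 66 is many cannot be told. Cyp27a1 read -7.00, -7.31, -6.83 and -5.84 in the saline samples and -7.46, -4.27, -4.64 and -6.62 in the colistin samples. Albumin (Alb) read 3.29 in colistin 2 and 0.11 in colistin 3, and -8.21 to -0.60 in the other 6 samples, with saline 2 the highest of those. Of 11 liver genes listed, 10 were highest in colistin 2, and 6 were higher by over 1 in both colistin 2 and 3 than in colistin 1 and 4. In 5 of the 11 (Alb, Ttr, Tf, Serpina1 and Hp), colistin 2 and 3 were the highest of the 8 samples. In 4 others (Apoa1, Apoa2, Fgb and Cps1) colistin 3 was the lowest colistin sample, so the liver genes did not share 1 order. The summed liver signal was 0.892 to 4.54 in saline samples and 10.28 to 90.71 in colistin samples. Without Fgb, a choice made after the sums were seen, it was 0.884 to 2.71 in saline samples and 1.41, 62.8, 7.9 and 1.25 in colistin samples 1 to 4, so that colistin 1 and 4 lay inside the saline range. Tat was flagged in 1 saline sample alone and Cps1 in 3 colistin samples alone, and 0 of 10 liver genes tested passed. The part of liver transcripts in these Cyp values was not tested. Without colistin 2 and 3, chosen after the data were seen, 0 P450 genes were higher or lower and the median of the 44 was -0.44.

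**Figure D3:**
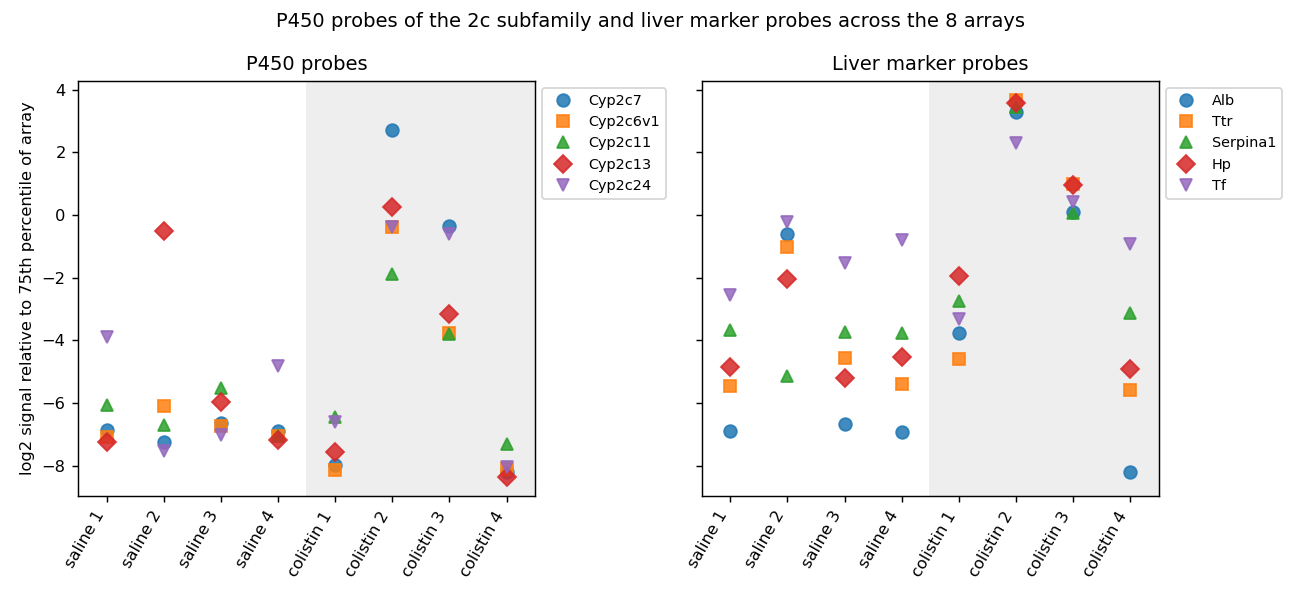
Log2 signal relative to the 75th percentile of the array for 5 Cyp2c probes (left) and 5 liver marker probes (right) in each of the 8 samples, with colistin samples on grey. Colistin 2 and colistin 3 are the highest colistin samples for all 10 probes, and saline 2 is high for Cyp2c13 and Alb. The liver probes drawn are the 5 of 11 in which those samples were the highest, picked after their values were seen, and Apoa1, Apoa2, Ahsg, Fgb, Tat and Cps1, which had other orders, are not drawn.

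In Cyp2c7 and in the male-specific pair, colistin 2 and 3 were the highest colistin samples, though Cyp2c13 was also high in saline 2. Their upstream sequences are shown for that reason. They lie at chr1:247966244-247966393 (Cyp2c7, plus strand), chr1:246175066-246175215 (Cyp2c11, plus strand) and chr1:248787189-248787338 (Cyp2c13, minus strand) of GRCr8. Capitals mark TATAAA, the motif of the TATA box. In the bases shown it begins 31 bases before the start in Cyp2c7 and Cyp2c11 and 41 bases before it in Cyp2c13. Cyp2c7 holds another match 172 bases before the start, outside the bases shown.
Cyp2c7: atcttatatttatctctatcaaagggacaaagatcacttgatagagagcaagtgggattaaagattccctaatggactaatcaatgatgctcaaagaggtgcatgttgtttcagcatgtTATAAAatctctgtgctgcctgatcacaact
Cyp2c11: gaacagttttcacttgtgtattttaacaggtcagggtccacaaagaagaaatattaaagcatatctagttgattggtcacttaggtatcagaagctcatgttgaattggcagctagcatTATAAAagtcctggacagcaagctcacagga
Cyp2c13: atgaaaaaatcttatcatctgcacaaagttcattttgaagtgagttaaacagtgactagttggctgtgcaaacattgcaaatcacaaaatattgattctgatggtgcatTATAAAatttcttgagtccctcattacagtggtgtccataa
Among the 53 members with an entry, 12 (22.6%) held TATAAA, against 8.06% of all 33469 promoters of the table, and 6 of the 12 were Cyp2c genes. TTGCNNAA, a C/EBP-type motif, was in 14 (26.4%), against 9.22%. Among the 14 were Cyp2b2, Cyp2b3, Cyp2b12, Cyp2b15 and Cyp2b21, genes of a single subfamily, which may not be separate cases. Members were counted by gene and the promoters of the table by entry. GCGTG, the core of the dioxin response element, was in 12 (22.6%), against 25.9%, and the GTTAAT and ATTNAC pair, an HNF1-type motif, in 0, against 0.0329%. A match is a run of letters and is given as a description.

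The Cyp2d subfamily, which oxidises many basic drugs, was tested in all 5 members and gave no call. Cyp2d1 read -2.96, 3.45, 3.74 and 5.0 in the saline samples and 2.15, 3.5, 2.63 and 1.71 in the colistin samples. Cyp2d5 read -2.71, 3.64, 4.04 and 5.21 against 2.28, 3.62, 2.81 and 1.96. For both genes saline 1 was far below the other 7 samples and saline 4 was the highest of the 8. The difference was 0.19 ± 1.58 for Cyp2d1 and 0.12 ± 1.58 for Cyp2d5 (SE). Without saline 1 it was -1.56 and -1.63, so that 1 sample decides the sign. The 2 probes may share transcripts, since the genes are near copies.

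Cyp2d2 was low in saline 1 as well. It read -7.25, -2.15, -1.70 and -2.31 in the saline samples and -0.75, -1.16, -1.50 and -2.39 in the colistin samples, with a difference of 1.90 ± 1.18 (SE) that was 0.60 without saline 1. Cyp2d3 and Cyp2d4 did not share this order. Cyp2d3 read -3.44, -4.03, -6.17 and -2.75 against -4.0, -4.51, -4.63 and -5.64. Cyp2d4 read -4.09, -2.94, -5.71 and 0.56 against -3.27, -0.69, -3.16 and -3.18. For both, saline 3 was the lowest of the 8 samples and saline 4 the highest, and their differences were -0.60 ± 0.74 and 0.47 ± 1.28 (SE). Of the 20 proximal tubule markers, 4 (Cubn, Ggt1, Slc7a13 and Acy3) were likewise lowest of the 8 samples in saline 1. Cubn, a receptor of the proximal tubule, read -1.83 there against 1.56 to 2.78 in the other 7 samples, and Slc7a13 read -0.50 against 1.73 to 5.22. Slc34a1 was not low in saline 1, at 6.75 against 5.29 to 7.55 elsewhere. The part of these markers in the Cyp2d values was not tested.

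The upstream sequences of Cyp2d1, Cyp2d5 and Cyp2d3 are shown because the first 2 moved together across all 8 samples while the third did not. They lie on the minus strand of GRCr8 at chr7:115793431-115793580, chr7:115784488-115784637 and chr7:115802143-115802292. Capitals mark the direct repeat of AGGNCA with 1 base between, an HNF4-type motif, which begins 77, 112 and 73 bases before the start.
Cyp2d1: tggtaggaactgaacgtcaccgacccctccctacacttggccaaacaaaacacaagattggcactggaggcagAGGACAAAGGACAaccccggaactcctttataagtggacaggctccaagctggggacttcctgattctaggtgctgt
Cyp2d5: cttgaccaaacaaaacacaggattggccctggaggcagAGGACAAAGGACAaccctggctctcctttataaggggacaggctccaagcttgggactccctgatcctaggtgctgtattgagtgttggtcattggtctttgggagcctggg
Cyp2d3: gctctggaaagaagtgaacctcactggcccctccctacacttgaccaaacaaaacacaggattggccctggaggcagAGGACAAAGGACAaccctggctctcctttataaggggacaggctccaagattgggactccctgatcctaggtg
The repeat was in 3 of 53 members (5.66%), these 3, and in 0.368% of all promoters. The 3 sequences are near copies, with 93.5% identity between Cyp2d1 and Cyp2d5 over 215 aligned columns, 91.9% between Cyp2d1 and Cyp2d3 over 246, and 97.2% between Cyp2d5 and Cyp2d3 over 211, so they are not separate cases of the motif. Hnf4a, the nuclear receptor that binds such repeats, read 2.13, 2.12, 1.65 and 2.49 in the saline samples and 0.55, 0.38, 1.28 and -0.14 in the colistin samples. Its groups did not overlap, and its difference of -1.58 ± 0.38 (SE) missed the threshold (adjusted p = 0.0832, limma with Benjamini-Hochberg).

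**Figure D4:**
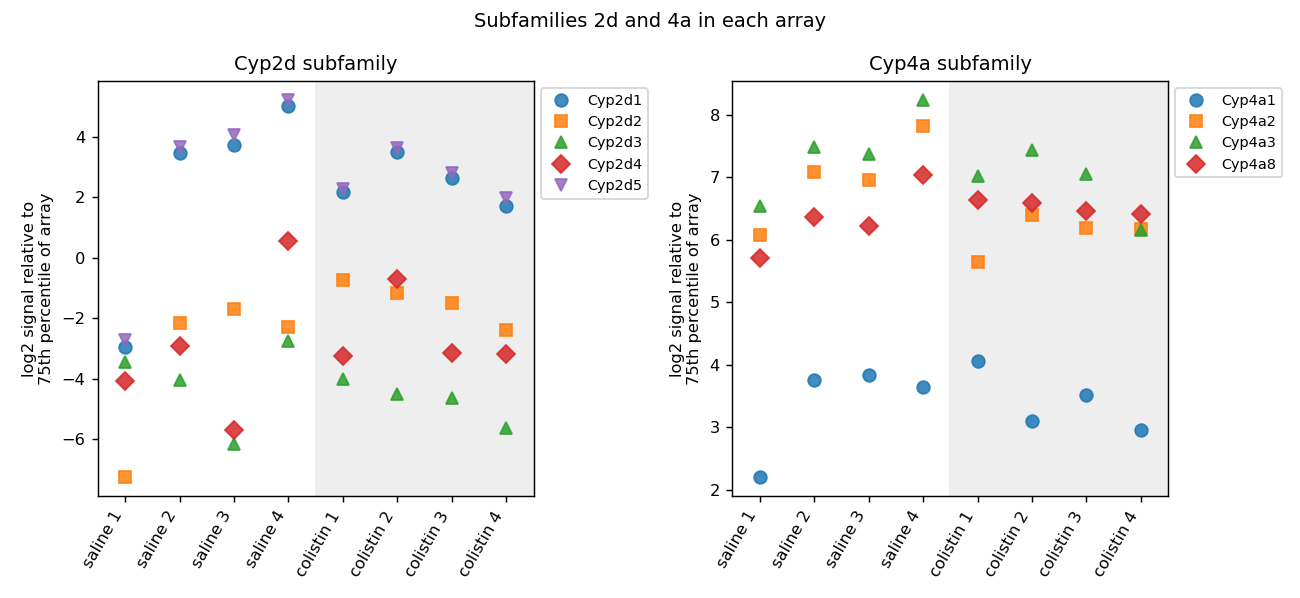
Log2 signal relative to the 75th percentile of the array for the 5 Cyp2d genes (left) and the 4 Cyp4a genes (right) in each of the 8 samples, with colistin samples on grey. Saline 1 is the lowest sample for Cyp2d1, Cyp2d2 and Cyp2d5, and saline 4 is the highest for Cyp4a2, Cyp4a3 and Cyp4a8.

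Cyp1b1, which oxidises polycyclic hydrocarbons and oestradiol, was well above background in 0 of 4 saline samples and in 4 of 4 colistin samples, the sole P450 gene with that split. It read -5.13, -7.47, -6.83 and -6.83 in the saline samples and -2.23, -3.57, -5.05 and -4.71 in the colistin samples. The groups did not overlap, though saline 1 and colistin 3 nearly met. The lowest flagged value was -5.04 in saline 1 and -5.95 in colistin 3, so of these only colistin 3 was flagged. By the scanner's flag for a positive and significant signal, 0 P450 genes had that split. Cyp1b1 carried that flag in 2 of 4 saline samples and 4 of 4 colistin samples. Since the saline values bear only a bound, the higher of each saline array's lowest flagged value and the probe's own value was taken. The mean of the colistin samples was 2.30-fold above the mean of these values. That fold is a point estimate given without its sampling error, so it sets no minimum on the difference. The fitted difference of 2.67 ± 0.74 (SE) missed the threshold (adjusted p = 0.106, limma with Benjamini-Hochberg) and turned to -0.17 with normexp correction. Cyp1a1, the classic target of the aryl hydrocarbon receptor Ahr, was not well above background in any sample. Cyp1a2 was well above background in 3 colistin samples and 0 saline samples, with colistin 2 at -1.25 and the other 7 samples between -7.52 and -4.95.

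Cyp2f4, known as a lung enzyme acting on naphthalene, read -2.29, -4.17, -3.98 and -4.64 in the saline samples and 0.47, 1.21, -3.10 and -1.46 in the colistin samples. Only colistin 3 fell inside the saline range, and the difference was 3.05 ± 0.97 (SE, adjusted p = 0.142, limma with Benjamini-Hochberg). Cyp2b21, of the subfamily that phenobarbital induces, read -3.69, -4.15, -3.95 and -4.04 in the saline samples and -5.21, -4.51, -4.69 and -4.57 in the colistin samples. The groups did not overlap, with a difference of -0.79 ± 0.29 (SE, adjusted p = 0.178 by limma). All 5 Cyp2b genes were tested, with differences from -0.79 to -0.23 and 0 calls. The second Cyp2b2 probe went the other way, at 1.73, with colistin 2 at 1.86 and the other 7 samples between -5.75 and -4.28.

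Cyp2e1, which oxidises ethanol and other small molecules, read 1.06, 1.06, 2.10 and 2.70 in the saline samples and 1.83, 1.32, 1.34 and 1.02 in the colistin samples. The groups overlapped throughout, and the difference was -0.35 ± 0.45 (SE). Among the Cyp2j genes, which make epoxides of arachidonic acid as Cyp2c23 does, Cyp2j4 read -4.02, -4.58, -3.80 and 1.68 against -2.58, 0.47, -0.78 and -0.59. All 4 colistin samples lay above 3 of the saline samples and below saline 4, and the difference was 1.81 ± 1.39 (SE). Its second probe gave 1.28. Cyp2j3 read -5.32, -5.37, -5.27 and -4.80 against -5.41, -5.00, -3.10 and -5.52. Only colistin 3 stood out, the probe was not well above background in any saline sample, and a second probe gave a difference of the opposite sign (-0.29 against 0.43). Cyp2j10 was flagged in 1 saline sample and was not tested. Cyp2r1, which hydroxylates vitamin D, read 0.41 in saline 4 and -5.22 to -2.30 in the other 7 samples. Cyp2s1 was likewise highest in saline 4, at 3.85 against -1.86 to 0.01 elsewhere, and its second probe read -1.55 there.

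Family 4 gave no call in 12 of 14 genes tested, although 9 of the 12 differences were below 0 and their median was -0.46, against -0.14 for all genes. The Cyp4a enzymes hydroxylate the end of fatty acid chains, arachidonic acid among them. Cyp4a2 read 6.08, 7.08, 6.95 and 7.82 in the saline samples and 5.65, 6.39, 6.19 and 6.17 in the colistin samples. Saline 1 lay within the colistin range and the other saline samples above it, and the difference was -0.88 ± 0.41 (SE, adjusted p = 0.244, limma with Benjamini-Hochberg). Cyp4a3 read 6.53, 7.48, 7.37 and 8.23 against 7.02, 7.43, 7.05 and 6.16, with wide overlap and a difference of -0.49 ± 0.45 (SE). Cyp4a8 read 5.71, 6.36, 6.22 and 7.04 against 6.63, 6.58, 6.46 and 6.41, a difference of 0.19 ± 0.34 (SE). The saline spread of Cyp4a8 covered all 4 colistin samples, and its second probe gave -0.43. Cyp4a1 read 2.21, 3.75, 3.83 and 3.64 against 4.07, 3.11, 3.53 and 2.96. Saline 1 was the lowest of the 8, and the difference was 0.06 ± 0.46 (SE).

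The Cyp4f enzymes hydroxylate leukotrienes and fatty acids, and 6 of 7 were tested. Cyp4f5 read -1.44, -0.13, -0.90 and -2.81 in the saline samples and -3.91, -4.78, -2.07 and -2.34 in the colistin samples. The groups overlapped through saline 4, and the difference was -1.96 ± 0.77 (SE, adjusted p = 0.191, limma with Benjamini-Hochberg). Cyp4f1 read 4.83, 5.24, 5.86 and 6.29 in the saline samples and 4.93, 5.18, 5.17 and 4.35 in the colistin samples. Cyp4f6 read 1.48, 1.59, 1.86 and 2.32 against 1.08, 2.22, 1.28 and 0.91. Both overlapped between groups, with differences of -0.65 ± 0.40 and -0.44 ± 0.39 (SE).

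Cyp4f17 read -1.11, -1.66, -1.95 and -1.21 in the saline samples and -1.62, -1.23, -1.36 and -1.68 in the colistin samples. Cyp4f18 read -1.34, 0.61, -0.42 and -1.47 against -0.40, -2.23, -0.60 and -0.30, and Cyp4f40 read -1.57, 0.34, -1.0 and 0.00 against -0.16, -0.57, -0.80 and -1.03. In these 3 genes the groups lay over each other, with differences of 0.01 ± 0.31, -0.23 ± 0.62 and -0.08 ± 0.48 (SE), and each changed sign when some single samples were left out. Cyp4f4 was not well above background in any sample. Cyp4b1, a fatty acid hydroxylase, read -0.55, -1.33, -2.49 and -4.41 against -4.40, -5.07, -0.58 and -4.17. Saline 4 sat with the low colistin samples and colistin 3 with the high saline samples, and the difference was -1.36 ± 1.15 (SE). Cyp4v3, another fatty acid hydroxylase, read 0.28 to 1.77 against -0.32 to 0.87, a difference of -0.82 ± 0.42 (SE, adjusted p = 0.277, limma). Saline 4 was the highest sample for 6 of the 12 genes of the family and for 18 of all 44 P450 genes tested, and colistin 4 was the lowest for 4 and 9.

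Of the bile acid and oxysterol genes, 2 of 5 were tested and neither passed. Cyp8b1, which sets the share of cholic acid among bile acids, read -4.23, -4.19, -5.01 and -4.65 in the saline samples and -5.44, -5.57, -5.85 and -5.36 in the colistin samples. The groups did not overlap, and the difference was -1.03 ± 0.31 (SE, adjusted p = 0.127, limma with Benjamini-Hochberg). Cyp7b1, which hydroxylates oxysterols, read -3.35, -5.23, -3.45 and -5.71 against -8.26, -7.23, -5.99 and -5.16. It overlapped through colistin 4, and the difference was -2.23 ± 0.82 (SE, adjusted p = 0.175, limma with Benjamini-Hochberg). The probe was well above background in 3 saline samples and 1 colistin sample. Both genes lay near the lowest flagged values, which were lower on colistin arrays. Cyp7a1, the rate-limiting enzyme of bile acid synthesis in the liver, was not well above background in any sample, and Cyp39a1 was flagged in colistin 3 alone.

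Of the 6 steroid hormone genes 5 were tested, all with differences between -0.75 and -0.56 and with 0 calls. Cyp21a1, which forms deoxycorticosterone, read -0.23, -0.34, -0.47 and -0.46 in the saline samples and -0.93, -1.04, -1.12 and -0.97 in the colistin samples. The groups were tight and did not overlap, yet the difference of -0.64 ± 0.25 (SE) missed the threshold (adjusted p = 0.191, limma with Benjamini-Hochberg). Cyp11b2, the aldosterone synthase, read -2.16, -2.44, -2.81 and -2.29 against -3.13, -2.90, -2.83 and -3.21. It did not overlap, though saline 3 and colistin 3 nearly met, with a difference of -0.60 ± 0.28 (SE, adjusted p = 0.248, limma). Cyp11b3, of the same subfamily, differed by -0.75 ± 0.30 on its brighter probe and by -0.92 on the other. Cyp17a1, on the path to androgens, read -2.79, -3.91, -3.58 and -2.90 in the saline samples and -3.66, -3.63, -4.25 and -3.88 in the colistin samples. Cyp11a1, which cleaves the side chain of cholesterol, read -4.86, -5.48, -5.97 and -4.59 against -5.45, -5.82, -6.54 and -5.37. Both overlapped between groups, with differences of -0.56 ± 0.36 and -0.57 ± 0.43 (SE). The Cyp11a1 probe was well above background in 1 saline and 3 colistin samples. It lay near the lowest flagged values, which were lower on colistin arrays. Cyp11b1, which makes corticosterone, was flagged in 2 samples of each group and was not tested. It read -4.77, -6.36, -5.81 and -4.38 against -5.81, -5.71, -6.91 and -6.78. With normexp correction all 5 genes tested were lower, at adjusted p of 0.033 to 0.0401, where that correction called 21.4% of all genes and 27.3% of the P450 genes lower.

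These genes are best known from the adrenal cortex, whose other markers gave no call. Of 10 listed, 4 were well above background in all 8 samples and 5 were tested. Among these 4, the cortical factors Nr5a1 and Nr0b1 did not overlap between groups, with differences of -0.94 (adjusted p = 0.166, limma with Benjamini-Hochberg) and -0.88 (adjusted p = 0.232), though for Nr0b1 they nearly met. Of 5 adrenal medulla genes listed, 2 were tested, the catecholamine enzymes Th and Pnmt. The groups did not overlap in either, with differences of -0.89 (adjusted p = 0.164, limma with Benjamini-Hochberg) and -0.66 (adjusted p = 0.208). Dbh was flagged in 2 saline samples alone, and Chga and Chgb in none. Over all genes tested, the groups did not overlap in 18.6%. Star, which brings cholesterol to Cyp11a1, was flagged in 1 saline and 1 colistin sample, and Hsd3b2 and Akr1b7 in none. The summed signal of the cortex list was 1.11 to 3.15 in saline samples and 1.18 to 2.28 in colistin samples. Without Mrap, its brightest gene, a choice made after the sums were seen, it was 0.555 to 0.813 in saline samples and 0.458, 0.391, 0.401 and 1.04 in colistin samples 1 to 4. The part of adrenal transcripts in the steroid hormone values was not tested.

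The 2 retinoic acid enzymes, Cyp26a1 and Cyp26b1, were not tested. Cyp26a1 was well above background in 1 sample of each group and Cyp26b1 in none. Cyp20a1, an orphan enzyme without a settled role, read -5.30, -6.32, -1.94 and -5.55 in the saline samples and -0.47, -2.09, -2.34 and -1.07 in the colistin samples. Saline 3 lay inside the colistin range and the other saline samples far below it. The difference was 3.29 ± 0.94 (SE, adjusted p = 0.118, limma with Benjamini-Hochberg), and without saline 3 it was 4.23 (adjusted p = 0.0214). With normexp correction it was 0.69 (adjusted p = 0.157, limma). The probe was well above background in 1 saline sample and 4 colistin samples, so the size of the difference rests on saline values near the background. Saline 3, the sample inside the colistin range, was 1 of 8 left out in turn. Without it 2 of 44 P450 genes (4.55%) were called, Cyp3a9 and Cyp20a1, against 1.59% of all genes. Saline 3 was the sole saline sample in which either probe was well above background. Leaving it out takes away the bright saline value of both genes, so no conclusion is drawn from that count.

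Taking detection alone, 29 of the 66 P450 genes were well above background in all 8 samples, 28 in some and 9 in none. The 9 were Cyp1a1, Cyp26b1, Cyp2a3, Cyp2c12, Cyp2c22, Cyp3a2, Cyp3a23-3a1, Cyp4f4 and Cyp7a1. Their scaled values differed by -1.29 to -0.46, with a median of -1.05, and the 3413 probes of the array that were not well above background in any sample had a median of -0.94. Both groups are below background there, so no fold is given. The 13 genes flagged in some samples but not tested included Cyp2c6v1, Cyp2c7, Cyp2c11, Cyp2c13 and Cyp2c24, described above.

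Genes that work with P450 enzymes were read from 7 lists, which held 1 call. Of 11 electron donors tested, 0 were higher or lower. Por, the reductase that feeds microsomal P450 enzymes, read -3.85, -3.45, -2.23 and -1.11 in the saline samples and 0.40, -0.82, -1.95 and -1.54 in the colistin samples, with an overlap through saline 4 and a difference of 1.68 ± 0.73 (SE, adjusted p = 0.221, limma). Cyb5a, Cyb5r3 and Fdx1, which carry electrons as well, differed by -0.34, -0.42 and -0.38, and Fdxr, the mitochondrial reductase, by 1.67, none past the test. Of 14 genes of haem synthesis and breakdown, 0 passed. Alas1, the rate-limiting enzyme of haem synthesis, differed by 1.41 ± 0.57 (SE, adjusted p = 0.198, limma), and Hmox1, which breaks haem down, by 0.31 ± 0.45 (SE).

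Of 26 regulators tested, Cebpb was called higher and 0 were called lower. Cebpb, a factor induced by inflammation, read 1.25, 1.61, 1.34 and 1.73 in the saline samples and 3.38, 3.86, 3.15 and 2.92 in the colistin samples. The groups lay apart, and the difference was 1.84 ± 0.31 (SE, adjusted p = 0.0287, limma with Benjamini-Hochberg). It stayed above 0 in 20 other settings and passed in 8, with adjusted p from 0.00678 to 0.197. Ppara, the fatty acid receptor that drives Cyp4a genes, differed by -2.32 ± 0.71 (SE, adjusted p = 0.133, limma), overlapping through saline 2. The drug receptors Nr1i2 and Nr1i3 differed by -0.38 and 1.29, and Ahr by -0.08, none past the test.

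Of 15 other enzymes of arachidonic acid tested, 0 passed. The epoxide hydrolases act on the products of Cyp2c and Cyp2j enzymes. Ephx1 read 2.17, 2.36, 0.36 and 1.29 in the saline samples and 3.66, 3.67, 3.13 and 2.62 in the colistin samples without overlap, a difference of 1.72 ± 0.51 (SE, adjusted p = 0.124, limma). Ephx2, well above background in 1 saline and 4 colistin samples, differed by 2.48 ± 0.70 (SE, adjusted p = 0.113, limma), and by -0.15 with normexp correction. Flavin monooxygenases and other oxidases, which share drug substrates with P450 enzymes, had 17 of 18 differences below 0 and a median of -1.12, with 0 calls. Over all genes 54.8% of differences lay below 0 with a median of -0.14, and the proximal tubule markers had 14 of 20 below 0 with a median of -0.85, whose part in the oxidase values was not tested. Conjugating enzymes (21 tested, median 0.17) and other retinoid genes (11 tested, median -0.63) also had 0 calls.

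**Figure D5:**
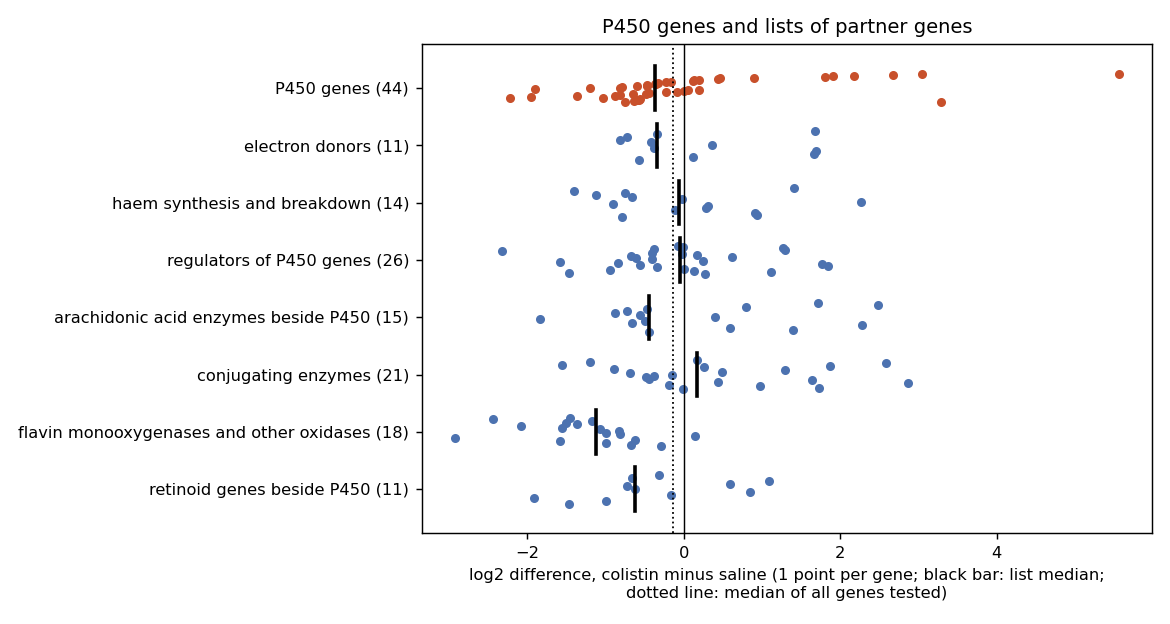
Log2 difference (colistin minus saline) of the 44 P450 genes tested and of the tested genes of 7 partner lists, 1 point per gene, with the list median as a black bar. The dotted line is the median of all genes tested, -0.14. The median of the oxidase list, -1.12, lies lowest, and 1 partner gene (Cebpb) and 1 P450 gene (Cyp3a9) passed the test.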

How the data were processed

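The 8 samples were measured on 1-colour Agilent arrays. The authors deposited 1 scanner table of spot intensity per array. The submitters' processing notes name Agilent Feature Extraction 10.5. Background was already subtracted from the processed intensity, per the file headers, and arrays were not brought to a common scale. The authors also deposited a table of log2 values, whose scale, centring and direction no label states. Set against the scanner values, its between-array differences correlated at 0.99988 or above with slopes of 0.998 to 1, and probes had a median of 0 over the 8 arrays. Its column medians were 0.232, 0.0228, 0.0861 and 0.196 for saline 1 to 4 and -0.113, -0.229, -0.0885 and -0.0325 for colistin 1 to 4.

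Control spots and outlier spots (257 to 461 per array) were left out, and 0 spots were saturated. Log2 processed signal was averaged over the spots of each probe, and the 75th percentile of non-control probes was subtracted within each array. Probes were named from RefSeq accessions without versions through a table of GRCr8, which named 18643 of 30367 probes. A gene was tested when its probe was well above background in at least 3 of 4 samples of either group, and the probe of highest mean stood for its gene. Colistin and saline were compared with limma 3.58.1 (lmFit and eBayes, two-sided) under R 4.3.3, with Benjamini-Hochberg adjustment over 12378 genes, and the scripts were tested on simulated data. Intervals are 95%.

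Named genes were the members that passed, that were above background in all samples of 1 group alone or that did not overlap between groups, plus a fixed group of kidney P450 genes and 14 partner genes, which were reported whatever their result, and the 1 partner gene that passed, Cebpb. Of 45 genes so named, 30 are P450 genes and 15 are partner genes. The members, lists and alternatives were chosen with earlier results of these data known. Cyp2f4, Cyp20a1, the Cyp2c genes that were high in colistin 2 and 3 and other members outside the rule were picked after their values were seen. Alternatives covered background correction, scaling, filter, probe choice, the deposited table, slide, replicate number and samples left out. The files held no mean signal column, so normexp (offset 50) was run on the median spot signal and the median background. The number of arrays limits the precision.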

Additional observations from a re-analysis of the deposited data

Results flagged for a closer look

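Each value here lay apart from the other 3 samples of its group by a gap that took up most of the group's range (above the 95% critical value of Dixon's test for 4 samples). Of 90 groups of 4 checked, 9 were flagged, and chance flags about 1 in 20. In the saline group, Cyp2d2 read -7.25 in saline 1, where the others lay between -2.31 and -1.70, and Cyp4a1 read 2.21 in saline 1, where the others lay between 3.64 and 3.83. Cyp3a9 read -3.70 in saline 3, against -7.27 to -6.87. Cyp2j4 read 1.68 in saline 4, against -4.58 to -3.80, and Hmox1, the haem oxygenase, read -0.32 in saline 4, against -1.70 to -1.49. Ephx2, the soluble epoxide hydrolase, read -4.48 in saline 2, against -7.16 to -6.78. In the colistin group, Cyp2d4 read -0.69 in colistin 2, against -3.27 to -3.16, and Cyp4f18 read -2.23 in colistin 2, against -0.60 to -0.30. Cyp3a18 read -3.54 in colistin 3, against -6.37 to -5.95.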

How the results depend on the processing

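The count of P450 genes called higher, 1 as reported, was 0 with the 75th percentile taken over probes above background on all arrays, with no filter on dim probes, with normexp correction, with probes above background on all 8 arrays only, with the slide as a block, without colistin 2 and 3, and without saline 1 and 4. It was 0 to 2 with single samples left out. The count of lower P450 genes was 12 with normexp correction and 0 in all other settings run. All genes called, 250 as reported, came to 3339 with normexp correction, 40 with the slide as a block, 37 without colistin 2 and 3, 141 without saline 1 and 4, and 78 to 254 with single samples left out. The median of the P450 genes ran from -0.454 to -0.208 when single samples were left out. The replicate numbers did not pair the samples (correlation of same-numbered deviations -0.0203 to 0.0124), and with the replicate number as a block 5 genes were called in all, 0 of them P450 genes.

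Differences that changed sign in another setting were as follows. With normexp correction they became -0.17 for Cyp1b1, -0.10 for Cyp2d1, -0.43 for Cyp2d4, -0.17 for Cyp2d5, -0.43 for Cyp2j3, -0.13 for Cyp4f17 and -0.15 for Ephx2. Cyp4a8 was -0.12 as the mean of its probes, and Ahr was 0.10 with quantile normalization. With the slide as a block, Cyp2d5 was -0.062, Cyp4a1 -0.11 and Ahr 0.17. Without colistin 2 and 3, Cyp2d1 was -0.38, Cyp2d4 -0.18, Cyp2d5 -0.43, Cyp2j3 -0.27, Cyp4f17 -0.17, Cyp4f18 0.30, Cyb5r3 0.088 and Ahr 0.21. Without saline 1 and 4, Cyp2d1 was -1.09, Cyp2d3 0.41, Cyp2d5 -1.17, Cyp4a1 -0.38 and Ahr 1.66. With single samples left out, the differences ran from -0.81 to 0.14 for Cyp3a18, -0.33 to 0.21 for Cyp4a1, -1.56 to 1.09 for Cyp2d1, -0.42 to 1.67 for Cyp2d4, -1.63 to 1.01 for Cyp2d5, -0.15 to 0.13 for Cyp4f17, -0.50 to 0.22 for Cyp4f18, -0.80 to 1.02 for Ahr, -0.12 to 0.69 for Cyp2j3, -0.42 to 0.22 for Cyp4f40 and -0.017 to 0.42 for Cyp4a8. The cause was not tested.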
